A study of Homo sapiens with 4 samples.

Results

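The MTRNR2L genes are copies of the mitochondrial 16S ribosomal RNA gene (MT-RNR2) that lie in the nuclear genome. They were taken as every gene of the deposited table whose symbol is MTRNR2L followed by a number, which gave 10 members, MTRNR2L1 to MTRNR2L10, of 26485 genes in all. RefSeq lists 13 symbols of this form, and the other 3 were not analysed here. Small RNA libraries had been made from HCT116 cells, a human colon carcinoma line, 2 from CD95L cells and 2 from vector cells. CD95L cells were infected with the lentiviral vector pLenti-GIII-CMV-RFP-2A-Puro (pLenti) carrying CD95L (gene symbol FASLG), and vector cells with the same pLenti without an insert. For HCT116 cells the study's methods name a CD95L mutant (MUT NP) that cannot bind its receptor CD95 and has an early stop codon. Both groups carried the Drosha k.o., from 1 clone made with CRISPR/Cas9. Drosha is the nuclear nuclease that starts the maturation of most miRNAs. Both groups were selected with 3 µg/mL puromycin, and RNA was taken at 50 h, counted from plating in the study's methods but from puromycin selection in a label. The study's methods state that the procedure, which started from infection of the cells, was carried out in duplicate. GEO's labels do not name the replicates as separate cultures, so part of the spread between libraries, on which any p-value given here rests, may be technical. The titles of both vector libraries are marked (# 2), and what this stands for is unknown here and cannot be told apart from the groups.

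The 16S rRNA is the RNA core of the large subunit of the mitochondrial ribosome and is transcribed from the mitochondrial genome. Over evolution, pieces of mitochondrial DNA have been inserted into the nuclear chromosomes, and the MTRNR2L genes are such pieces, also called humanin-like genes. Humanin is a short peptide read from within the 16S rRNA, known for protecting cells against death signals and for binding the death effector BAX. All 10 members had the RefSeq type pseudogene. No gene of the deposited table carried the symbol MT-RNR2 or MTRNR2, so the members could not be set against a level of the 16S rRNA. A small RNA read that matches both the 16S rRNA and a member does not show which of them it came from.

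In the hg38 sequence of the 16S rRNA, 1559 bases on the mitochondrial chromosome (chrM:1671-3229), a single open reading frame of 24 codons from an ATG was found, that of humanin, starting at base 963 of the rRNA. Of the 10 members, 8 kept a frame of 24 codons at this place, the frame of MTRNR2L4 ran to 28 codons, and MTRNR2L2 did not reach it. The frame with its stop codon, 75 bases, is shown for the 16S rRNA, for 4 of the most abundant members that hold it (MTRNR2L8, MTRNR2L1, MTRNR2L9 and MTRNR2L6), and for MTRNR2L5 and MTRNR2L7, whose levels turned on a single library. Sequences are from hg38, read 5′ to 3′ on the strand that corresponds to the rRNA. Capitals mark bases that differ from the 16S rRNA when the frames are laid side by side without a gap.
MT-RNR2 (chrM:2633-2707, plus strand): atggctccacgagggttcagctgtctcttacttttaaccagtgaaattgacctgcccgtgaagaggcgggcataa
MTRNR2L8 (chr11:10508152-10508226, minus strand): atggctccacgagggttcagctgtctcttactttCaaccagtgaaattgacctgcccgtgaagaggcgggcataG
MTRNR2L1 (chr17:22524062-22524136, plus strand): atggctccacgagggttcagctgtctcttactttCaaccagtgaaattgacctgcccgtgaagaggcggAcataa
MTRNR2L9 (chr6:61574328-61574402, plus strand): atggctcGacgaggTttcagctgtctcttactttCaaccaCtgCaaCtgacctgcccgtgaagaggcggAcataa
MTRNR2L6 (chr7:142667231-142667305, plus strand): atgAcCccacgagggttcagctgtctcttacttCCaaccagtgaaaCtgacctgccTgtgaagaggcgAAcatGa
MTRNR2L5 (chr10:55599900-55599974, plus strand): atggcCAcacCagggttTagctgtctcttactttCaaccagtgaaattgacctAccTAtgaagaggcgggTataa
MTRNR2L7 (chr10:37601970-37602044, minus strand): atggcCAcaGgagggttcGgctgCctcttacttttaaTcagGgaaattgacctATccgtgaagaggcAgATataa
MTRNR2L8 and MTRNR2L1, both among the 3 most abundant members, each differed from the 16S rRNA at 2 of these 75 bases. MTRNR2L9 differed at 7 bases and MTRNR2L6 at 9. MTRNR2L5 also differed at 9 and MTRNR2L7 at 12, the most of the 8 members with a frame of 24 codons. MTRNR2L3 differed at 9 and MTRNR2L10 at 11.

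Each library held 22488145 to 25163566 reads counted to genes, recovered from the deposited CPM (reads per 1000000 reads counted to genes), and the 10 most abundant genes took 39.4 to 42.6% of them. A count of 0 therefore allowed up to 0.119 to 0.133 CPM (3 counts per library). FASLG, the gene the virus carried, stood at 94.9 and 90.5 CPM in CD95L cells, against 1.16 and 2.94 CPM in vector cells. DROSHA was at 10.1 and 13.6 CPM in CD95L cells, against 13.6 and 10.4 CPM in vector cells, and since both groups carried the k.o. this does not check the labels. The 12 epithelial and colon markers summed to 149 and 155 CPM in CD95L cells, against 158 and 153 CPM in vector cells. The 10 fibroblast markers summed to 44.7 and 50.2 CPM in CD95L cells, against 39.5 and 30.8 CPM in vector cells. The 8 leukocyte markers summed to 18.2 and 25.6 CPM, against 17.7 and 16.4 CPM in vector cells. For the 5 neuron markers the sums were 43.9 and 54.7 CPM in CD95L cells, against 53.1 and 41.4 CPM in vector cells. For the 4 endothelial markers they were 44.6 and 67.1 CPM, against 59.4 and 52.9 CPM in vector cells. None of these 5 lists had a marker at 0 in all 4 libraries. Tested were 10 epithelial and colon, 7 fibroblast, 5 leukocyte, 3 neuron and 3 endothelial markers. Of these 0 passed the test between groups, as did 0.0062% of all genes tested. These libraries count fragments, so a marker's value here is not the level of its mRNA. In such bulk samples, fewer cells of a type and less RNA per cell cannot be told apart.

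All 10 members gave reads in all 4 libraries. Together they held 9619 and 10067 CPM in CD95L cells, against 9699 and 9098 CPM in vector cells. That was 0.962% (95% interval 0.958 to 0.966%) and 1.01% (1.00 to 1.01%) of the gene reads in CD95L cells, against 0.970% (0.966 to 0.974%) and 0.910% (0.906 to 0.914%) in vector cells (exact binomial intervals, which cover counting error only). The share thus stayed close to 1% of all gene reads in either group.

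MTRNR2L8, MTRNR2L1 and MTRNR2L2 carried most of these reads in every library. The 3 together took 87.9 and 94.0% of the member reads in CD95L cells, against 89.8 and 91.3% in vector cells. MTRNR2L8 alone took 44.7% (44.5 to 44.9%) and 54.8% (54.5 to 55.0%) in CD95L cells, against 52.7% (52.5 to 52.9%) and 49.6% (49.4 to 49.8%) in vector cells. Its share thus lay below 50% in 1 library of each group. By mean CPM over all 4 libraries, with no correction for length, MTRNR2L8 ranked 33rd, MTRNR2L1 62nd and MTRNR2L2 78th of all genes in the table. The lowest members, MTRNR2L3 and MTRNR2L4, still ranked 1043rd and 1075th.

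**Figure D1:**
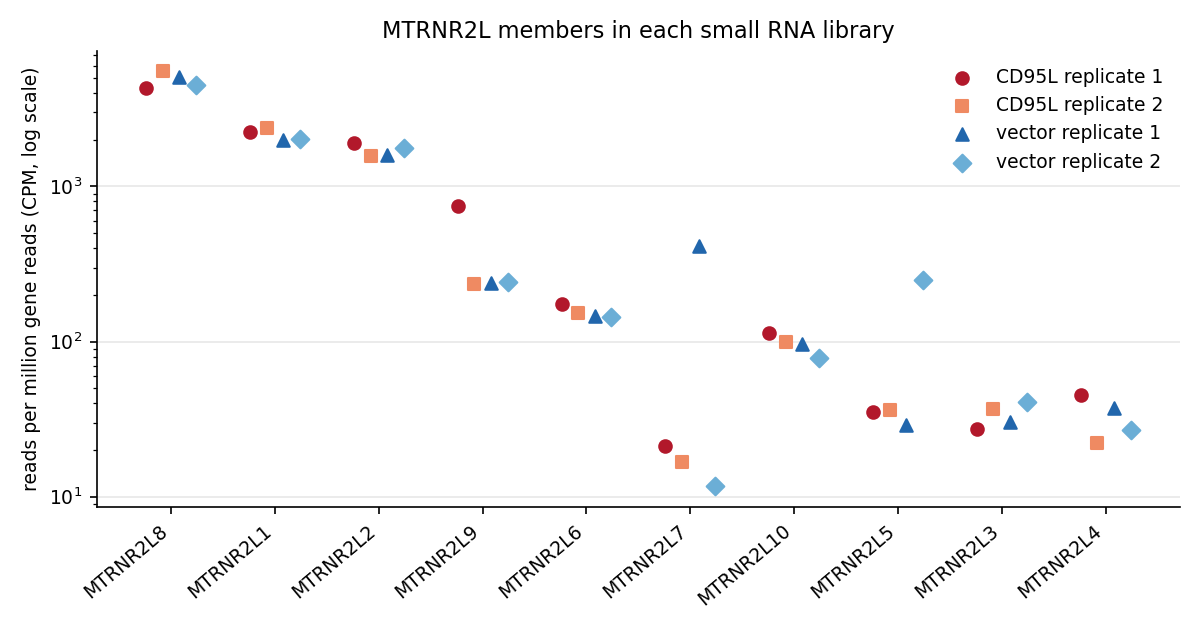
Level of each MTRNR2L member (CPM, log scale) in each of the 4 libraries, members ordered by their mean, 1 point per library, no error bar since each library is drawn. MTRNR2L8, MTRNR2L1 and MTRNR2L2 lie above 1500 CPM in all 4 libraries, while MTRNR2L9, MTRNR2L7 and MTRNR2L5 each have 1 point far above their other 3.

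**Figure D2:**
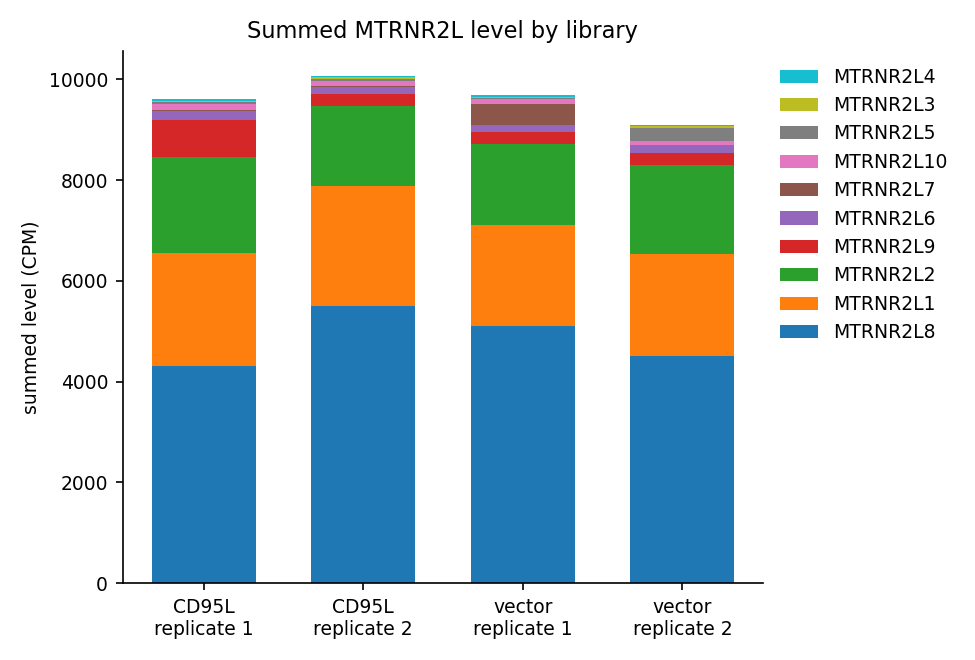
Summed level of the 10 MTRNR2L members (CPM) in each library, stacked by member, from 0. The bars reach 9619 and 10067 CPM in the CD95L libraries and 9699 and 9098 CPM in the vector libraries, and the lowest block, MTRNR2L8, makes up the largest piece of each.

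Since the members differ in length (448 to 1687 bases in RefSeq), their levels were compared with each other per kb of gene. On this scale the order at the top was MTRNR2L8, MTRNR2L2, MTRNR2L1 and MTRNR2L9 in each of the 4 libraries. MTRNR2L8 had 3336 to 4273 CPM per kb, MTRNR2L2 2575 to 3107 and MTRNR2L1 1600 to 1906 (lowest and highest of the 4 libraries), so the ranges of these 3 did not overlap. MTRNR2L9 ranged from 528 to 1670 CPM per kb, which reached into the range of MTRNR2L1. MTRNR2L6 had 216 to 263 CPM per kb, MTRNR2L10 74.5 to 107, MTRNR2L3 45.04 to 66.98 and MTRNR2L4 18.1 to 36.5, each range clear of its neighbour in this sequence. MTRNR2L5 (17.1 to 148 CPM per kb) and MTRNR2L7 (7.63 to 268) had no fixed place, since each was far higher in 1 vector library. Outside vector replicate 1, MTRNR2L7 was the lowest member per kb, at 7.63 to 13.7, and in vector replicate 1 it stood above MTRNR2L6.

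MTRNR2L8 (chr11:10507887-10509176, minus strand) contains the hairpin of MIR4485 on the same strand. MTRNR2L1 (chr17:22523415-22524663, plus strand) shares 101 of its 1249 bases with an exon of a lncRNA annotated on the other strand. MTRNR2L2 spans chr5:80650420-80651030 (minus strand). Members inside introns of protein-coding genes on the other strand included MTRNR2L3 (chr20:57358433-57359039, minus strand), which lies opposite to RAE1, an mRNA export factor gene. MTRNR2L5 (chr10:55599042-55600728, plus strand) lies opposite to PCDH15, a protocadherin gene. MTRNR2L4 (chr16:3371053-3372283, minus strand) lies opposite to a gene without a symbol. MTRNR2L6 (chr7:142667017-142667685, plus strand), MTRNR2L7 (chr10:37601438-37602974, minus strand), MTRNR2L9 (chr6:61574103-61574550, plus strand) and MTRNR2L10 (chrX:55181392-55182442, minus strand) overlapped no gene of the GENCODE annotation used. Coordinates are RefSeq's on hg38, since the sources used here do not give the gene models the authors counted on.

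RAE1 and PCDH15 gave few reads. RAE1 was at 4.37 and 4.09 CPM in CD95L cells, against 3.73 and 4.33 CPM in vector cells. PCDH15 was at 2.75 and 6.80 CPM in CD95L cells, against 3.01 and 2.90 CPM in vector cells, so it was not high in vector replicate 2, where MTRNR2L5 peaked. MIR4485 was listed at 0 in all 4 libraries. Its mature miRNA is shown because the same bases stand in the 16S rRNA from base 893 and in MTRNR2L8, with bases 2 to 8, the seed, in capitals (RefSeq GRCh38.p14, chr11:10508277-10508296, minus strand).
hsa-miR-4485-3p: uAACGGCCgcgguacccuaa
These 20 bases matched the genome exactly at 4 places, and MTRNR2L8 was the only member among them. How the counting treated reads shared by MIR4485 and MTRNR2L8 is unknown here, and the value of 0 is uncertain.

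The members with the sequence closest to the 16S rRNA were those with the highest mean levels per kb. Aligned to the 16S rRNA, MTRNR2L2 was 95.7% identical, MTRNR2L8 93.3%, MTRNR2L9 92.8%, MTRNR2L6 89.6% and MTRNR2L1 89.1%. These 5 had mean levels of 232 to 3768 CPM per kb. MTRNR2L10 was 86.3% identical, MTRNR2L3 85.3%, MTRNR2L7 83.2%, MTRNR2L4 83.0% and MTRNR2L5 81.0%. These 5 had mean levels of 26.6 to 92.0 CPM per kb, all below 232. In vector replicate 1, however, MTRNR2L7 had 268 CPM per kb, above MTRNR2L6 at 218. Over the 10 members, the rank correlation of identity with mean CPM per kb was 0.927 (Spearman's rho, a description). Within single libraries it was 0.915 and 0.903 in the CD95L libraries and 0.867 and 0.818 in the vector libraries. With mean CPM not divided by length, the coefficient was 0.818. The 10 points share libraries, ancestry and stretches of sequence and are not independent. The coefficient of gene length with mean CPM per kb was -0.188.

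The members also covered different parts of the rRNA. MTRNR2L2 matched its 5′ part (bases 18 to 628), MTRNR2L3 its 3′ part (bases 963 to 1559), and MTRNR2L9 a middle piece (bases 738 to 1184). MTRNR2L8 matched bases 13 to 1302 and MTRNR2L7 bases 31 to 1559. For 8 members 96.4 to 99.9% of the gene aligned to the rRNA, against 60.9% for MTRNR2L5 and 45.3% for MTRNR2L4, whose RefSeq spans run beyond the copy. The levels per kb of MTRNR2L5 and MTRNR2L4 are thus divided by a length that includes bases outside the copy. The most alike pair was MTRNR2L2 and MTRNR2L8, identical at 96.4% of 610 shared positions.

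**Figure D3:**
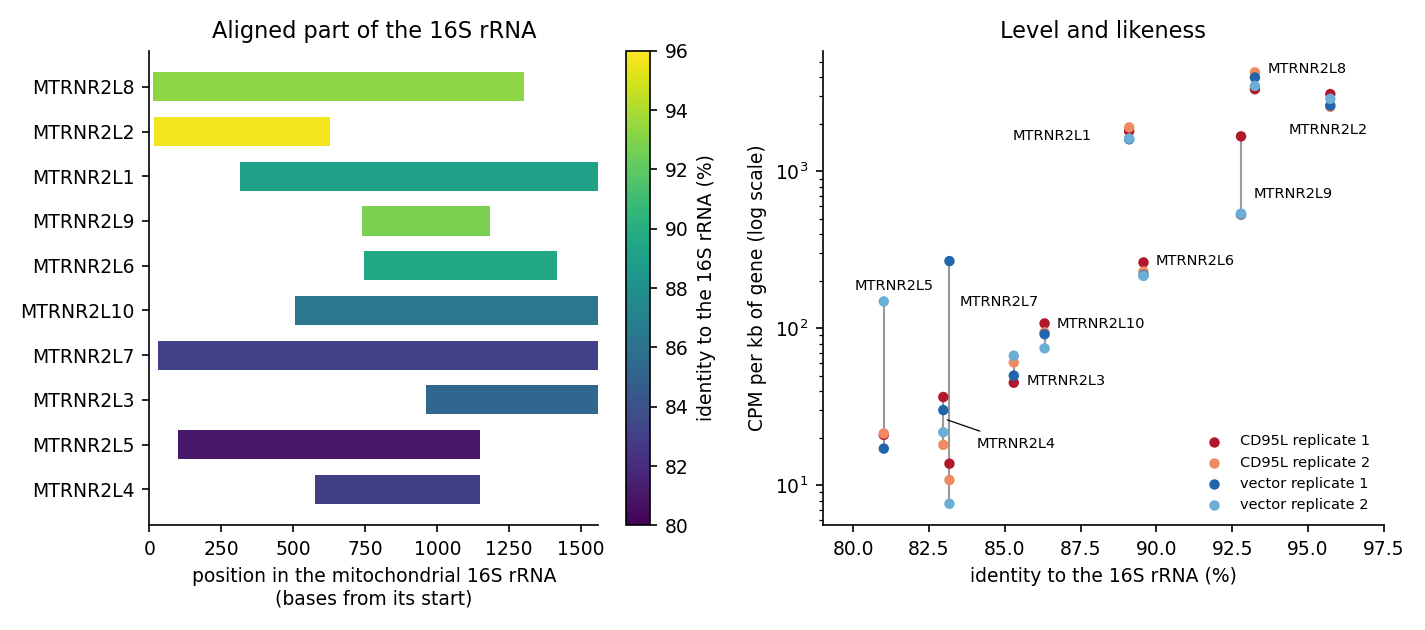
Left, the stretch of the 16S rRNA that each member aligns to (bases from the start of the rRNA), coloured by percent identity, members ordered by mean CPM per kb. Right, CPM per kb (log scale) against percent identity, 1 point per library with a line joining the 4 libraries of a member; the 5 members at 89.1 to 95.7% identity have means of 232 to 3768 CPM per kb and the 5 at 81.0 to 86.3% have means of 26.6 to 92.0.

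Short reads from such copies can fit several places. Of all stretches of 20 bases in each member, those found nowhere else in the nuclear chromosomes or the mitochondrial genome made up 21.1% in MTRNR2L2, 34.2% in MTRNR2L6, 35.7% in MTRNR2L8 and 47.3 to 66.3% in the other 7. Stretches that occur letter for letter in the 16S rRNA made up 43.1% in MTRNR2L2, 37.7% in MTRNR2L8, 22.4% in MTRNR2L9, 16.8% in MTRNR2L6 and 16.6% in MTRNR2L1, but less than 10% in the other 5, from 1.499% in MTRNR2L5 to 9.69% in MTRNR2L10. With stretches of 30 bases, 32.3% of MTRNR2L2 and 49.1% of MTRNR2L8 were found nowhere else, against 56.6 to 84.9% in the other 8 members. The split of reads between members, and between members and the 16S rRNA, is therefore uncertain. Read lengths and the positions of reads within the members were not analysed here.

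Between CD95L and vector cells no member passed the test. limma on log2(CPM + 1) over the 16127 genes that averaged 1 CPM or more, all 10 members among them, called 1 gene at an adjusted p below 0.05, FASLG (0.0062% of genes tested), which was higher in CD95L cells by 5.00 ± 0.30 on the log2(CPM + 1) scale (SE, adjusted p = 3.55e-05). Of the 10 members, 0 were called and 0 had an unadjusted p below 0.05. Of all genes, 867 had an unadjusted p below 0.05. DESeq2 on the recovered reads also called 0 members, with 37 of all 16127 genes called. By contrast, edgeR called 1 member, MTRNR2L7, with 0.446% of all genes called. The fitted difference was positive for 7 members and negative for 3, with a median of 0.03 on the log2(CPM + 1) scale, against -0.005 over all genes tested.

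The 3 abundant members differed little. MTRNR2L8 had 4303 and 5512 CPM in CD95L cells, against 5109 and 4516 CPM in vector cells (4908 ± 855 and 4813 ± 420 CPM, SD, n = 2 each). The groups overlapped, and the difference was 0.02 ± 0.25 on the log2(CPM + 1) scale (SE, limma, adjusted p = 0.998). MTRNR2L2 had 1898 and 1573 CPM in CD95L cells, against 1602 and 1770 CPM in vector cells. It averaged 1736 ± 230 CPM in CD95L cells and 1686 ± 118 CPM in vector cells (SD, n = 2 each), again with overlap. Its difference was 0.04 ± 0.25 (SE, limma, adjusted p = 0.992). MTRNR2L1 had 2252 and 2381 CPM in CD95L cells, against 1998 and 2020 CPM in vector cells. The groups did not overlap, and the means differed 1.15-fold, or by 0.20 ± 0.24 on the log2(CPM + 1) scale (SE, limma, adjusted p = 0.954).

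The groups also did not overlap for MTRNR2L6 and MTRNR2L10. MTRNR2L6 had 176 and 154 CPM in CD95L cells, against 146 and 144 CPM in vector cells, a difference of 0.18 ± 0.24 on the log2(CPM + 1) scale (SE, limma, adjusted p = 0.959). MTRNR2L10 had 113 and 98.99 CPM in CD95L cells, against 96.4 and 78.3 CPM in vector cells, a difference of 0.28 ± 0.25 (SE, limma, adjusted p = 0.940). Thus 3 of 10 members were higher in both CD95L libraries than in both vector libraries, as were 16% of all genes tested. Lower in both CD95L libraries were 0 of 10 members and 19% of all genes tested. MTRNR2L3 had 27.3 and 36.8 CPM in CD95L cells, against 30.3 and 40.7 CPM in vector cells. MTRNR2L4 had 44.9 and 22.3 CPM in CD95L cells, against 37.1 and 26.8 CPM in vector cells. Both overlapped between groups, and the differences were -0.14 ± 0.27 for MTRNR2L3 and 0.0066 ± 0.33 for MTRNR2L4 on the log2(CPM + 1) scale (SE, limma, adjusted p = 0.970 and 0.999).

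The summed level of the members averaged 9843 ± 317 CPM in CD95L cells and 9399 ± 425 CPM in vector cells (SD, n = 2 each), a ratio of 1.05. The 444 CPM between the means was close to the spread between replicates (two-sided exact permutation test, p = 0.667, where 2 against 2 libraries cannot go below 0.333). Without MTRNR2L8 the ratio was 1.08, at 4935 ± 537 CPM in CD95L cells and 4586 ± 5.40 CPM in vector cells (exact permutation p = 1.00). Leaving out MTRNR2L5, MTRNR2L7 and MTRNR2L9 gave a ratio of 1.06 (exact permutation p = 0.667).

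**Figure D4:**
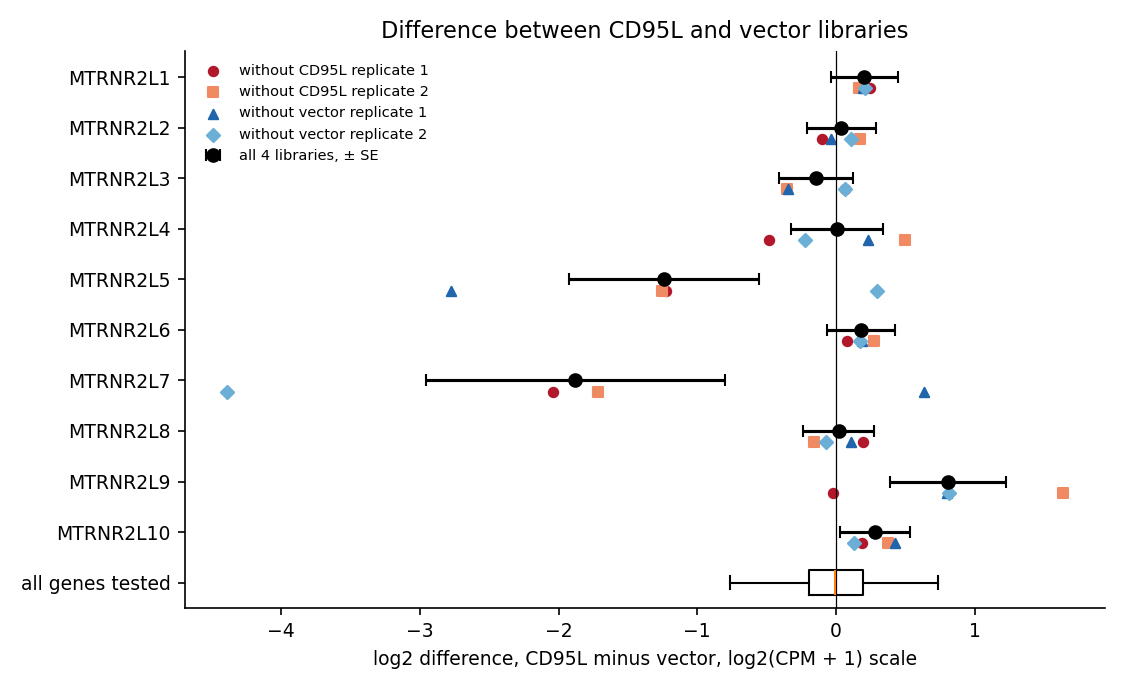
Difference between CD95L and vector cells on the log2(CPM + 1) scale for each member (black, limma estimate ± SE over all 4 libraries) and with each library left out in turn (coloured); the box at the bottom gives the quartiles and the median of all 16127 genes tested, with whiskers at percentiles 1 and 99. The estimate of MTRNR2L7 is -1.88 with all libraries and 0.63 without vector replicate 1, and that of MTRNR2L5 is -1.24 with all libraries and 0.30 without vector replicate 2.

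The members with the largest differences, MTRNR2L7, MTRNR2L5 and MTRNR2L9, each owed them to 1 library. MTRNR2L7 had 21.1 and 16.6 CPM in CD95L cells, against 412 and 11.7 CPM in vector cells. The 412 CPM of vector replicate 1 were 10267 reads, against 483, 373 and 295 reads in CD95L replicate 1, CD95L replicate 2 and vector replicate 2, so the group means differed while vector replicate 2 lay below both CD95L libraries. The difference was -1.88 ± 1.08 on the log2(CPM + 1) scale (SE, limma, adjusted p = 0.923). Without vector replicate 1 it was 0.63 (limma, adjusted p = 1.00), in a fit that called 0.124% of genes. Without vector replicate 2 it was -4.39 (limma, adjusted p = 4.54e-08), in a fit that called 0.512% of genes, MTRNR2L7 being the only member among them. Such a fit has 1 library in the group that lost a replicate, which is assumed to vary like the other group. Its p-value sets that library against the spread of the remaining pair after this was drawn toward a spread shared by all genes tested. edgeR gave -3.42 (adjusted p = 0.0293) over all 4 libraries.

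MTRNR2L5 had 35.3 and 36.1 CPM in CD95L cells, against 28.9 and 250 CPM in vector cells. Here vector replicate 2 stood out, with 6299 reads against 720 in vector replicate 1, and vector replicate 1 lay below both CD95L libraries. The difference was -1.24 ± 0.68 on the log2(CPM + 1) scale (SE, limma, adjusted p = 0.923). Leaving out vector replicate 2 turned it to 0.30, and leaving out vector replicate 1 gave -2.78. Only the latter passed the threshold, in a fit with 1 vector library.

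MTRNR2L9 had 748 and 236 CPM in CD95L cells, against 239 and 241 CPM in vector cells. CD95L replicate 1 held 17130 reads of this member, against 5318 in CD95L replicate 2, and the other 3 libraries lay within 5 CPM of each other. The difference was 0.81 ± 0.42 on the log2(CPM + 1) scale (SE, limma, adjusted p = 0.923). It was -0.02 without CD95L replicate 1 and 1.64 without CD95L replicate 2 (limma, adjusted p = 0.0722).

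Such jumps between replicates were rare among all genes. Over the 4324 genes that averaged 10 CPM or more, the larger replicate exceeded the smaller 1.18-fold in CD95L cells and 1.13-fold in vector cells at the median. For MTRNR2L7 the vector replicates differed 35.2-fold, and 0 of the other genes differed more. For MTRNR2L5 they differed 8.66-fold, with 5 genes above. For MTRNR2L9 the CD95L replicates differed 3.16-fold, with 7 genes above. In the group without the peak, the CD95L replicates of MTRNR2L7 were 1.27-fold and those of MTRNR2L5 1.02-fold apart, and the vector replicates of MTRNR2L9 were 1.01-fold apart. MTRNR2L4 differed 2.02-fold between its CD95L replicates, which 1.92% of other genes exceeded.

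Counted another way, the highest library was at least 3 times the next in 19 of the 4324 genes (0.439%), and 3 of these were members. MTRNR2L7 was 19.5 times, MTRNR2L5 6.94 times and MTRNR2L9 3.11 times the next library, each with its peak in a different library. Vector replicate 1, where MTRNR2L7 peaked, was the highest library for 15 of the 19 genes, among them 13 miRNA genes and SNORD114-12, a C/D box snoRNA gene. MIR27B, as 1 of these, had 8.34 and 7.69 CPM in CD95L cells, against 291 and 54.4 CPM in vector cells. In vector replicate 2 the other gene beside MTRNR2L5 was MCM7, a subunit of the replicative helicase, with 16.6 and 18.8 CPM in CD95L cells, against 17.6 and 72.6 CPM in vector cells. In CD95L replicate 1 the other gene beside MTRNR2L9 was PLCG2, a phospholipase C gene, with 623 and 7.52 CPM in CD95L cells, against 5.66 and 7.79 CPM in vector cells. SNORD114-12, MIR27B, MCM7 and PLCG2 were chosen after their values had been seen. Whether what raised those genes in a library had a part in the peaks of the members was not tested.

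**Figure D5:**
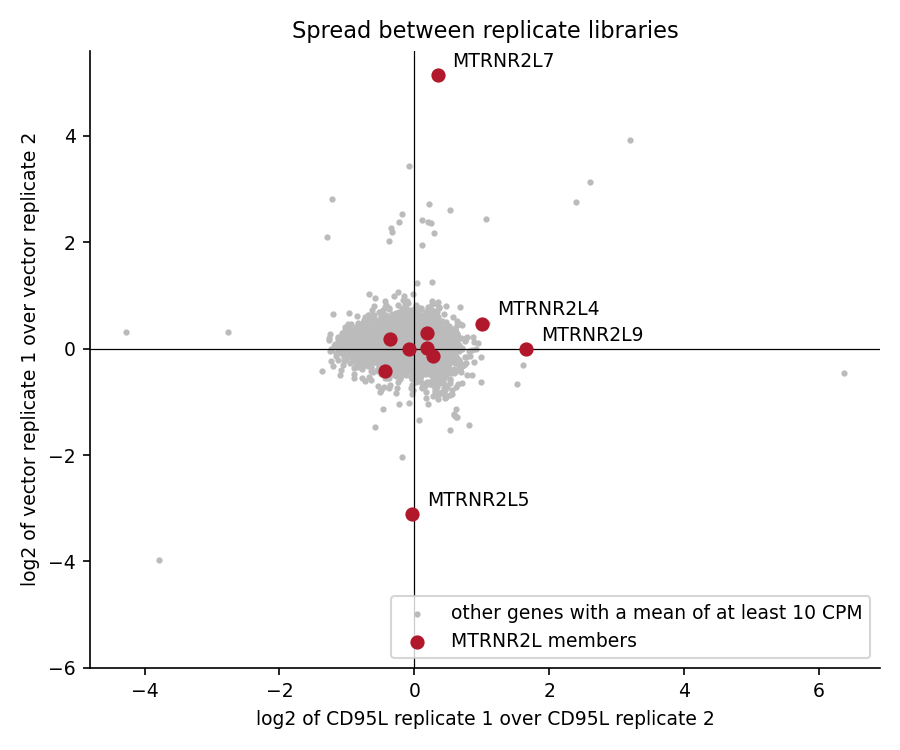
Ratio of replicate 1 to replicate 2 on the log2 scale, CD95L libraries across and vector libraries upward, for the 4324 genes averaging 10 CPM or more (grey) and the 10 members (red). Most genes lie close to 0 on both axes, while MTRNR2L7 and MTRNR2L5 lie far out along the vector axis, in opposite directions, and MTRNR2L9 along the CD95L axis.

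The ratio of the summed levels was 1.05 with and 1.06 without the members that peaked, while the spread between the CD95L replicates was wider without them, at 9296 ± 682 CPM in CD95L cells and 8807 ± 300 CPM in vector cells (SD, n = 2 each). MTRNR2L5, MTRNR2L7 and MTRNR2L9 together held 805 and 289 CPM in CD95L cells, against 680 and 503 CPM in vector cells, or 8.36 and 2.87% of the member reads in CD95L cells, against 7.01 and 5.53% in vector cells. The genes whose profile over the 4 libraries lay nearest to the summed level were FSCN1, an actin-bundling protein gene, LAMC1, a laminin chain gene, TMEM30A, MIR6858 and KLF6, a zinc finger transcription factor gene. Their centred log2 values were 0.012 to 0.017 from those of the sum (root mean square), among 4314 genes compared. FSCN1, the nearest, stood at 27.9 and 29.8 CPM in CD95L cells, against 28.1 and 26.7 CPM in vector cells. With 4 libraries and so flat a sum, this likeness describes small differences only.

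Genes that serve the mitochondrial ribosome and its rRNA were read from the same fit, in which 0.0062% of all genes were called, so that 0 calls in a list sets it apart in no way. Of 77 genes for mitochondrial ribosomal proteins in the table, 73 were tested, 37 with a positive and 36 with a negative difference, and 0 were called. Their median difference was 0.0013 on the log2(CPM + 1) scale, against -0.005 over all genes. MRPS16, a protein of the small subunit and the highest of the list, averaged 36.3 ± 2.52 CPM in CD95L cells and 39.2 ± 2.82 CPM in vector cells (SD, n = 2 each). MRPL4 averaged 13.1 ± 2.78 and MRPL39, another large-subunit protein, 15.7 ± 1.95 CPM in CD95L cells, against 15.4 ± 2.91 and 12.5 ± 4.43 CPM in vector cells. All 28 genes found for mitochondrial RNA synthesis and rRNA maturation were tested, 10 with a positive and 18 with a negative difference, and 0 were called (median -0.07). In this list POLRMT, the mitochondrial RNA polymerase, averaged 24.3 ± 1.03 CPM in CD95L cells and 29.2 ± 0.925 CPM in vector cells (SD, n = 2 each), a difference of -0.25 ± 0.24 (SE, limma, adjusted p = 0.944). PNPT1, an RNA-degrading enzyme of mitochondria, averaged 43.0 ± 12.05 CPM in CD95L cells and 40.5 ± 5.90 CPM in vector cells. LRPPRC, which stabilises mitochondrial mRNAs, averaged 17.5 ± 2.49 CPM in CD95L cells and 17.96 ± 2.41 CPM in vector cells.

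Of 10 genes for reported partners of humanin, 7 were tested, 2 with a positive and 5 with a negative difference, and 0 were called (median -0.08). BCL2L11, which encodes the death effector BIM, had 13.1 and 14.6 CPM in CD95L cells, against 13.2 and 16.4 CPM in vector cells. IL6ST, the receptor chain gp130, averaged 12.7 ± 0.816 CPM in CD95L cells and 13.2 ± 2.01 CPM in vector cells. TRIM11, a ubiquitin ligase, averaged 8.43 ± 1.23 CPM in CD95L cells and 10.01 ± 0.889 CPM in vector cells. These values count fragments of mRNA in small RNA libraries.

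The cytoplasmic rRNA genes gave another family of rRNA fragments in the same libraries. Of 21 such genes, 17 were listed at 0 in all 4 libraries, and 3 were tested, all 3 with a positive difference and 0 called. RNA45S5, the precursor of the cytoplasmic rRNAs, had 8107 and 6652 CPM in CD95L cells, against 5447 and 8079 CPM in vector cells. RNA28S5 had 604 and 484 CPM in CD95L cells, against 402 and 503 CPM in vector cells. RNA5S9 had 8.43 and 3.96 CPM in CD95L cells, against 1.61 and 6.12 CPM in vector cells. In each of these 3 genes the groups overlapped.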

How the data were processed

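Total small RNA of 4 samples was sequenced on an Illumina instrument. The authors trimmed the reads with TrimGalore, used TopHat for alignment to hg38, HTSeq for counts per gene and edgeR for their test, and Bowtie2 is also named in the submitters' processing notes. The sources used here do not give tool versions, gene models or the handling of reads that match several places. The deposited values are CPM, each library summing to 1000000 over 26485 genes. The authors also deposited their own comparison (p-values with and without adjustment, log2 fold changes and average log2 CPM), which was not used.

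Whole reads could be recovered for 100% of the deposited CPM values (within 0.01 of a read), with totals of 22897068 and 22488145 reads (CD95L) and 24915394 and 25163566 reads (vector). Replicates differed well beyond counting noise and were kept as separate samples. limma 3.58.1 (R 4.3.3, no trend) was fitted to log2(CPM + 1) with group as the only term, over genes averaging 1 CPM or more. P-values are two-sided and adjusted by Benjamini-Hochberg over all genes tested, with a threshold of 0.05. Differences on this scale understate the change of low genes. edgeR 4.0.16 (quasi-likelihood) and DESeq2 1.42.0 on the recovered reads were alternatives, as were other pseudocounts, filters and scalings, a replicate block, and leaving out each library. The fits were tested on simulated data. Shares have exact 95% binomial intervals, and sums were compared by an exact permutation test (scipy 1.17.1, Python 3.11.15).

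Member coordinates and lengths are RefSeq's, overlaps GENCODE's. An overlap of 1 member is not reported here. Each member was aligned locally to the 16S rRNA (Biopython 1.88) and identity leaves out gaps. Stretches of 20 and 30 bases were looked up on both strands of 25 chromosomes. Named genes were the 10 members, FASLG and DROSHA, the 3 highest genes of each related list, and the 5 genes nearest to the profile of the summed level. RAE1, PCDH15 and MIR4485 are named outside this rule because they overlap a member, and SNORD114-12, MIR27B, MCM7 and PLCG2 after their values had been seen. Among genes of the mitochondrial genome and other nuclear copies of them, the list patterns matched MTTP alone, a gene for an unrelated microsomal protein, and no value is given for it. The members and lists were chosen with earlier results of these data known.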

Additional observations from a re-analysis of the deposited data

How the results depend on the processing

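All 8 alternatives of the summed level kept a positive log2 ratio, at 0.02 to 0.12 against 0.07. Of 140 recomputed member differences, 124 kept their direction and their side of the threshold, 4 passed the threshold and 12 changed sign. The count of members called, 0 in the limma fit, was 1 with edgeR, MTRNR2L7, where 72 of all genes were called. It was also 1 with the replicate block, again MTRNR2L7, where 80 of all genes were called. The rest of the 4 came from fits with 1 vector library, MTRNR2L7 without vector replicate 2 and MTRNR2L5 without vector replicate 1. Members with an unadjusted p below 0.05, 0 in the limma fit, were 3 with edgeR, 3 with a mean-variance trend and 3 with the replicate block. They were 2 with DESeq2 size factors and 1 without a filter. Over all genes, these fits had 854 to 2138 such genes. Other pseudocounts, a filter at 5 CPM, TMM factors and DESeq2 on the recovered reads kept the 0 members. With DESeq2 size factors the difference of MTRNR2L4 was -0.0013, against 0.0066. The other changes of sign came from leaving out a library, where the differences ran from -0.10 to 0.17 for MTRNR2L2, -0.35 to 0.064 for MTRNR2L3, -0.48 to 0.50 for MTRNR2L4, -2.78 to 0.30 for MTRNR2L5, -4.39 to 0.63 for MTRNR2L7, -0.16 to 0.20 for MTRNR2L8 and -0.020 to 1.64 for MTRNR2L9 (log2 scale). Per kb, the mean share of MTRNR2L8 in the member level was 39.2%, against 50.5% of reads, since the division favours short members, and it was 49.0 to 52.4% with a library left out. Over all genes, 1 was called in the limma fit, 0 with a pseudocount of 0.1 (873 with an unadjusted p below 0.05) or without a filter (2138 such genes), 5 with TMM factors, 31 with DESeq2 size factors, 29 with a mean-variance trend, 72 with edgeR, 37 with DESeq2, and 5 to 83 with a library left out. Apart from the smaller number of libraries in a left-out fit, the cause of these changes was not tested.

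With the replicate number as a block, limma called 80 genes, among them 1 member, MTRNR2L7 (difference -1.88, adjusted p = 0.00765). Over 16127 genes, the difference between the CD95L replicates had a correlation of -0.002 with that between the vector replicates. With 2 libraries per group this compares a single contrast from each group. It cannot decide whether libraries with the same number were paired. The SEs of limma given here are moderated, that is, drawn toward a spread shared by all genes tested. They were 0.24 to 0.33 for the 7 members without a single high library. With 2 libraries per group, this fit could not detect a change of the size of the summed level's in a single member. The sum itself had a log2 ratio of 0.067, against a pooled SD of 0.057 between replicates (log2 of the summed CPM).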
